A study of Mus musculus with 4 samples.

Results

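Expression of 6 transcription factor genes, out of 31914 genes in the joined feature lists, was followed across single cells of the mouse embryo: the Ikaros family genes Ikzf1, Ikzf2 and Ikzf3, and Sox4, Satb1 and Bcl11a. They were found by symbol, and all 6 are in every library's feature list. The labels name the sorted cells lymphoid tissue inducer (LTi) cells, innate lymphocytes of the fetus with a part in building lymph nodes. Untreated C57 Bl/6 embryos were taken at embryonic days E13.5 and E14.5, fetal liver was kept apart from the tissue labelled periphery, CD45+ cells were enriched on magnetic beads, and the sort gate was live CD45+, F4/80-, IL7Rα+. Each combination of tissue and stage is 1 library, and the number of embryos pooled is not given in the sources used here. Fetal liver was made with version 3 and periphery with version 2 of the 10x Chromium 3' kit, so kit, feature list and tissue cannot be told apart.

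Ikaros family proteins are zinc-finger factors that bind DNA through an N-terminal block of fingers, pair with each other through a C-terminal block, and recruit chromatin-remodelling and deacetylase complexes such as NuRD. Ikzf1 (Ikaros) is needed for lymphocyte formation, Ikzf2 (Helios) is known from innate-like and regulatory lymphocytes, and Ikzf3 (Aiolos) from later B cells and innate lymphocytes. Sox4 is an HMG-box factor of progenitors and of B and T cell development. Satb1 folds chromatin at matrix attachment regions and acts in stem cells and thymocytes. Bcl11a is a zinc-finger repressor required for B cells and plasmacytoid dendritic cells, best known for silencing embryonic and fetal globin genes in red cells.

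The Ikaros family genes are shown by the coding bases of the second DNA-binding zinc finger, because the 3 genes are read apart from each other in these data although they share this domain. On GRCm38 with GENCODE M21 transcripts the stretch lies in 1 exon of each gene, at chr11:11754024-11754086 on the plus strand for Ikzf1, chr1:69570581-69570643 on the minus strand for Ikzf2 and chr11:98488940-98489002 on the minus strand for Ikzf3. Capitals mark bases that differ from Ikzf1, and each of the other genes has 51 of 63 bases (81.0%) in common with it.
Ikzf1: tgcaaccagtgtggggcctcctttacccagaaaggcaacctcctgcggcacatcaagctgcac
Ikzf2: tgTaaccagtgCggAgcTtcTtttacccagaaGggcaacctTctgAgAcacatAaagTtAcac
Ikzf3: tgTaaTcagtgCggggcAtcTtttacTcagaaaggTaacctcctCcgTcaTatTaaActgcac
A 3' library reads the far end of the transcript, not this exon. There, over the last 400 bases of the annotated transcripts, the longest run shared by any pair of the 6 genes was 19 bases (Sox4 and Satb1), and by any pair of Ikaros genes 16 bases.

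For Sox4 and Bcl11a, which were high in the same fetal liver cells, the 250 bases before the RefSeq transcript start are shown (RefSeq, GRCm38.p6), at chr13:28953700-28953949 on the minus strand and chr11:24080445-24080694 on the plus strand. Capitals mark matches, on either strand, to TGGGAA (the core bound by Ikaros factors), CCAAT and GGGCGG (the GC box). A match describes the letters only and is not a measured site.
Sox4: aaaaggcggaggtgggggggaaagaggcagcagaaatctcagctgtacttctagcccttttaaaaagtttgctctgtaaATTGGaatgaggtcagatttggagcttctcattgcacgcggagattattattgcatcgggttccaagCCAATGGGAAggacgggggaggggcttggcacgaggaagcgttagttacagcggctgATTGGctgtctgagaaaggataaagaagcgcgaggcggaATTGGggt
Bcl11a: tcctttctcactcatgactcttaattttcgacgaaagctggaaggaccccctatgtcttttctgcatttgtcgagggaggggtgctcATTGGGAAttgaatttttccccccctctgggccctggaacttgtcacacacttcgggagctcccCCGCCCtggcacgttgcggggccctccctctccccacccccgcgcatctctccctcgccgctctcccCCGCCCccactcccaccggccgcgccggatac
The Sox4 window holds 1 TGGGAA and 4 CCAAT matches, and the Bcl11a window 1 TGGGAA, 1 CCAAT and 2 GC boxes. In both windows the TGGGAA overlaps a CCAAT, an arrangement in 1.09% of 32851 mouse windows of this length. The 2 Ikzf1 and 5 Satb1 windows, not printed here, hold no CCAAT and so lack it, and a Satb1 window holds 1 TGGGAA alone. No window was found for Ikzf2 or Ikzf3. The overlap is thus not a trait of the members as a set. Taken singly, TGGGAA is in 21.6% of those windows, CCAAT in 33.8% and GGGCGG in 32.7%. The gene bodies are at chr11:11685003-11772926 (Ikzf1), chr1:69531214-69687245 (Ikzf2), chr11:98464902-98546031 (Ikzf3), chr13:28948919-28953713 (Sox4), chr17:51736187-51833290 (Satb1) and chr11:24078056-24174123 (Bcl11a). No gene of the feature lists overlaps them on the same strand, while Ikzf1, Ikzf2, Sox4 and Bcl11a each have a listed partner on the opposite strand, and how strand was used in counting is not given in the sources used here.

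Filtering kept 10072 (E13.5) and 10820 (E14.5) fetal liver cells and 4165 and 4325 periphery cells, with medians of 18354, 15587, 11122 and 8457 UMIs (unique molecules counted) per cell. The kept cells held 192591018, 179709416, 50562503 and 41838218 UMIs in that order. Fetal liver at E13.5 stood apart in mitochondrial RNA, since a limit of 5% would keep 4386 of its cells against 9770 at E14.5. Barcodes shared between libraries numbered 29 within fetal liver, 33 within periphery and at most 3 elsewhere. Of the sorted cells, those with an LTi marker profile (9 or 10 of 10 markers detected in each such cluster) were 4.48 and 2.09% in fetal liver and 34.3 and 73.4% in periphery, so the gate held many other cell types. The unnamed clusters P5 (632 and 90 cells) and P8 (240 and 168 cells), led by other genes, also had 9 and 10 of 10 LTi markers detected. Over the other clusterings and the marker gate the LTi-like cells of periphery numbered 529 to 2039 at the earlier and 1731 to 3280 at the later stage, against 1428 and 3173 here.

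Levels are given as CPM, a gene's UMIs per 1000000 UMIs of the summed cells, with exact Poisson 95% intervals in parentheses that cover counting error only. Folds are log2 ratios after adding 5 CPM, minus the median fold of all genes with 10 CPM or more in either library. A gene was called past the fold when this centred value was at least 1 in either direction. With 1 library per group there is no replicate check and no p-value, and every difference describes these libraries.

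Sox4, Satb1 and Bcl11a were high in fetal liver and low in periphery, Ikzf2 and Ikzf3 the other way round, and Ikzf1 stood between. Sox4 was at 431 CPM (428 to 434) at E13.5 and 434 CPM (430.5 to 437) at E14.5 in fetal liver, and at 34.0 CPM (32.4 to 35.6) and 37.6 CPM (35.8 to 39.5) in periphery. Satb1 was at 172 (169.8 to 174), 144 (142 to 145), 26.0 (24.6 to 27.4) and 18.4 (17.1 to 19.7) CPM in the same order. Bcl11a was at 278 (276 to 281), 259 (257 to 262), 56.9 (54.9 to 59.0) and 33.5 (31.8 to 35.3) CPM. For these 3 genes both liver libraries lay far above both periphery libraries.

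Among the Ikaros genes, Ikzf1 was at 173 (172 to 175), 156 (154 to 158), 65.8 (63.6 to 68.1) and 90.7 (87.9 to 93.7) CPM. Ikzf2 was at 23.6 (22.9 to 24.3), 19.99 (19.3 to 20.7), 89.5 (86.9 to 92.1) and 155 (152 to 159) CPM. Ikzf3 was at 0.488 (0.394 to 0.597), 4.08 (3.79 to 4.39), 6.59 (5.90 to 7.33) and 18.8 (17.5 to 20.1) CPM, resting on 94, 733, 333 and 786 UMIs. Ikzf2 and Ikzf3 were highest in periphery at E14.5, whereas Ikzf1 was highest in fetal liver at E13.5. In sums over all cells, fewer cells of a type and less RNA per cell cannot be told apart, so the classes below carry the comparison further.

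**Figure D1:**
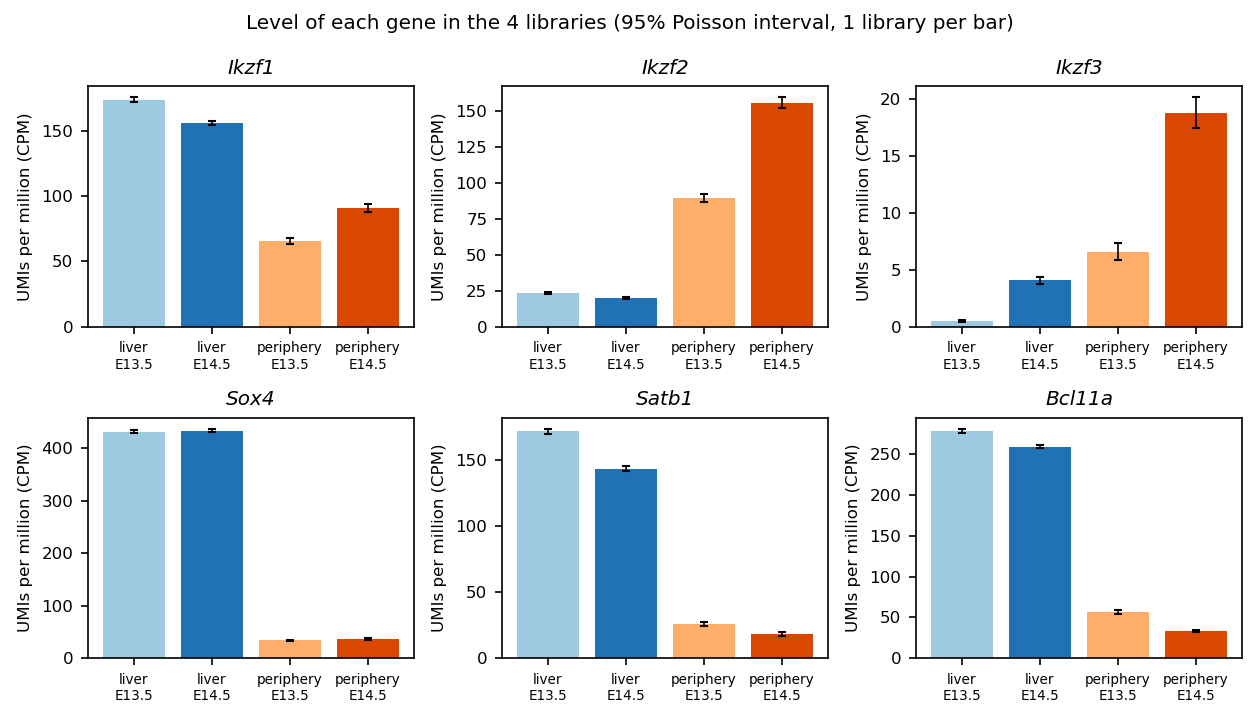
Level of each gene in CPM (vertical axes start at 0 and differ between genes) in fetal liver and periphery at E13.5 and E14.5; each bar is 1 library and its bar of error the 95% Poisson interval. Sox4, Satb1 and Bcl11a stand high in both liver libraries, Ikzf2 and Ikzf3 in periphery at E14.5 (155 and 18.8 CPM).

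Between stages no member passed the fold over all cells of either tissue. In fetal liver 1.60% of measured genes passed, and the 5 measured members had centred log2 folds (E14.5 over E13.5) from -0.22 for Satb1 to 0.04 for Sox4, with Bcl11a at -0.07, Ikzf1 at -0.12 and Ikzf2 at -0.16. Ikzf3 was under 10 CPM in both liver libraries and has no fold there. In periphery 3.73% of genes passed, and the 6 members ran from -0.91 for Bcl11a and -0.63 for Satb1, through -0.10 for Sox4 and 0.21 for Ikzf1, to 0.54 for Ikzf2 and 0.81 for Ikzf3. The median over the members was -0.12 in fetal liver and 0.06 in periphery, beside 0 for all genes by construction. With 1 CPM added in place of 5, 2 members of periphery passed, Bcl11a (-1.19 to -0.68 over all alternatives) and Ikzf3 (1.12). The share of all genes past the fold was not computed for that setting.

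Cells of each tissue were grouped into clusters without use of the 6 genes, and clusters were named from markers. Liver clusters are written FL0 to FL16 and periphery clusters P0 to P19, and a class name with "-like" rests on markers only. In fetal liver, LTi-like (cluster FL8), innate lymphoid progenitor-like (FL1), stem and multipotent progenitor-like (FL2), B lineage-like (FL4, FL10, FL13, FL15), plasmacytoid-like (FL9), monocyte-like (FL7), neutrophil lineage-like (FL12) and mast cell or basophil-like (FL14) cells were found. In periphery, LTi-like (8 clusters), innate lymphoid progenitor-like (P2, led by interferon-response genes such as Gbp2 and Cxcl10), B lineage-like (P3, P19), plasmacytoid-like (P7), T cell-like (P15) and mast cell or basophil-like (P16) cells were found. Unnamed clusters held 44.0 and 25.7% of liver cells and 51.0 and 14.4% of periphery cells, E13.5 first.

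Ikzf1 varied least between the named classes. In fetal liver its level ran from 79.0 CPM (70.9 to 87.8) in neutrophil lineage-like to 260 CPM (236 to 286) in mast cell or basophil-like cells at E13.5, and from 87.7 to 219 CPM in the same classes at E14.5. That is a ratio of 3.29 and 2.49 from the highest to the lowest class. LTi-like cells were at 183 (173 to 193) and 164 (148 to 181) CPM, within the interval of B lineage-like cells at E13.5 (183 CPM) but above them at E14.5 (130 CPM, 127 to 132). In periphery the mast cell or basophil-like cells were again the highest named class, at 121 CPM (overlapping plasmacytoid-like cells at 105 CPM) and 147 CPM, and LTi-like cells were at 56.3 (52.6 to 60.1) and 91.2 (87.7 to 94.8) CPM.

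Ikzf2 was highest in innate lymphoid and mast cell classes. In fetal liver at E13.5 it was at 148 CPM in both innate lymphoid progenitor-like and mast cell or basophil-like cells, whose intervals overlap, and at 92.6 CPM (85.4 to 100.2) in LTi-like cells. Neutrophil lineage-like cells had 47.5 CPM, stem and multipotent progenitor-like cells 20.9 CPM (19.6 to 22.3), and monocyte-like, plasmacytoid-like and B lineage-like cells 6.77, 4.25 and 2.65 CPM. At E14.5 the order from the top was mast cell or basophil-like (149 CPM), LTi-like (115 CPM) and innate lymphoid progenitor-like (109 CPM), the last pair with overlapping intervals, and B lineage-like cells were lowest at 1.83 CPM (1.54 to 2.16). Over 7 other clusterings and gates the liver innate lymphoid progenitor-like level ran from 42.7 to 167 CPM at E13.5 and from 37.0 to 151 CPM at E14.5. The liver LTi-like level ran from 67.2 to 127 and from 98.0 to 143 CPM over 8. The order of these 2 classes thus depends on the clustering. Among the named classes of periphery the innate lymphoid progenitor-like cells led with 215 (191 to 241) and 350.4 (317 to 387) CPM, followed by LTi-like cells with 107 (102 to 112) and 172 (167 to 177) CPM. The highest liver level was in an unnamed cluster, FL11, led by Cxcl10, Ccl5, Cd3g, Cxcr6, Rora and Ifng, genes known from cytotoxic and type 1 innate lymphocytes: 379 CPM (344 to 416) in 96 cells at E13.5 and 278 CPM (260.1 to 296) in 285 cells at E14.5. In periphery the unnamed cluster P6, led by Cd3g and Tcrg-C4 among others, was at 254 CPM at E13.5, above that class, and at 329 CPM at E14.5.

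Shares of cells with at least 1 Ikzf2 UMI also set LTi-like apart from B lineage-like cells. With every cell thinned to 3000 UMIs, 24.2% (20.3 to 28.4) and 29.8% (23.8 to 36.4) of LTi-like cells of fetal liver and 26.4% (24.1 to 28.8) and 38.1% (36.4 to 39.8) of those of periphery had one. In B lineage-like cells the shares were 1.26, 0.636, 0.329 and 0.619% in the same library order, the level against which the LTi-like shares are read. Before thinning the LTi-like shares were 56.3, 58.0, 58.5 and 66.6% and the B lineage-like shares 3.61, 2.98, 1.961 and 3.28%, at median depths of 13110, 9340, 10090 and 8034 UMIs against 13171, 15337, 13805 and 18417. Thinning left out 4, 8, 18 and 90 shallower LTi-like cells and 4, 44, 2 and 12 B lineage-like cells.

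Ikzf3 was found in few places. In fetal liver it was highest in FL11, at 33.2 CPM (23.5 to 45.5) and 98.5 CPM (88.2 to 109.8), followed by mast cell or basophil-like cells at 16.3 (10.6 to 23.9) and 23.1 (19.8 to 26.9) CPM. In LTi-like cells it rested on 7 UMIs at E13.5 (1.05 CPM, 0.424 to 2.17) and 29 at E14.5 (11.8 CPM, 7.90 to 16.9). Stem and multipotent progenitor-like cells had 1 UMI in 2091 cells and 1 in 446, and innate lymphoid progenitor-like cells 1 in 352 and 0 in 211. Among B lineage-like clusters at E14.5 it rested on 1 UMI each in FL4 and FL10, and was at 0.717 CPM (0.480 to 1.03) in FL13 and 22.3 CPM (18.9 to 26.1) in FL15, the cluster led by the immunoglobulin light chain gene Igkc. In periphery P2 had 37.2 (27.7 to 48.9) and 86.3 (70.1 to 105.2) CPM, and P6 24.2 and 62.7 CPM.

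Sox4 was high in the progenitor classes and low in the granulocyte classes of fetal liver. At E13.5 the order was innate lymphoid progenitor-like (577 CPM, 559 to 595), stem and multipotent progenitor-like (546 CPM), B lineage-like (521 CPM), plasmacytoid-like (421 CPM), monocyte-like (334 CPM), LTi-like (238 CPM, 226 to 250.03), neutrophil lineage-like (32.4 CPM) and mast cell or basophil-like cells (28.2 CPM). Only the last pair had overlapping intervals. Over 7 other clusterings and gates the innate lymphoid progenitor-like level ran from 398 to 601 CPM. The stem and multipotent progenitor-like level ran from 529 to 566 CPM over 6. Over 8, mast cell or basophil-like cells ran from 28.2 to 193 CPM and neutrophil lineage-like cells from 32.2 to 89.7 CPM. These ranges overlap within the top pair and within the bottom pair, so the counting intervals do not fix the order there. At the later stage the stem and multipotent (593 CPM) and innate lymphoid progenitor-like cells (577 CPM) led with overlapping intervals, and LTi-like cells were at 198 CPM (181 to 217). Mast cell or basophil-like cells were at 26.5 CPM (22.9 to 30.5) there. In periphery B lineage-like cells were highest (77.6 and 106 CPM), then plasmacytoid-like cells at E13.5 (29.7 CPM) and LTi-like cells (8.79 and 22.2 CPM). The innate lymphoid progenitor-like cells (5.11 and 7.04 CPM) and mast cell or basophil-like cells (4.89 and 5.45 CPM) rested on 5 to 8 UMIs per library.

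In LTi-like cells thinned to 3000 UMIs, a Sox4 UMI was found in 38.7% (34.2 to 43.4) and 26.6% (20.9 to 33.0) in fetal liver and in 2.55% (1.79 to 3.52) and 6.16% (5.34 to 7.07) in periphery. Before thinning the shares were 72.3, 49.1, 7.49 and 15.3%. The mast cell or basophil-like cells were taken as background because they were low in Sox4 in these same data. They had 5.61, 5.54, 1.79 and 0%, the last a count of 0 in 61 cells that allows up to 5.87%. The periphery share at E13.5 lies inside the interval of that background (0.0452 to 9.55%). That interval is too wide for the comparison to say whether the LTi-like share stands above background. At E14.5 the upper limit of 5.87% lies inside the LTi-like interval.

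Satb1 and Bcl11a were both high in stem and multipotent progenitor-like, monocyte-like and plasmacytoid-like cells and lower in LTi-like cells. Satb1 at E13.5 was highest in B lineage-like (257 CPM, 247 to 268) and plasmacytoid-like cells (222 CPM), then stem and multipotent progenitor-like cells (182 CPM), innate lymphoid progenitor-like (146 CPM), monocyte-like (142 CPM), LTi-like (84.5 CPM, 77.6 to 91.7), mast cell or basophil-like (80.2 CPM) and neutrophil lineage-like cells (22.3 CPM). The innate lymphoid progenitor-like and monocyte-like intervals overlap, and so do the LTi-like and mast cell or basophil-like ones. Over 8 other clusterings and gates the B lineage-like level ran from 205 to 250 CPM and the plasmacytoid-like level from 157 to 195 CPM. Both ranges lie below the levels given here. Stem and multipotent progenitor-like cells ran from 169 to 178 CPM over 6, so their place against plasmacytoid-like cells is not fixed. At the later stage the stem and multipotent class led (199 CPM), and B lineage-like cells, at 115 CPM (112 to 117), came after 4 of the 8 classes. Bcl11a was highest in plasmacytoid-like cells at both stages, at 351 (340.3 to 363) and 387 (377 to 397) CPM, and lowest in mast cell or basophil-like cells at 20.7 and 18.1 CPM. Stem and multipotent progenitor-like (315 and 295 CPM), B lineage-like (296 and 274 CPM) and monocyte-like cells (270.3 and 286 CPM) lay close below the highest class, and innate lymphoid progenitor-like cells were at 78.2 and 93.6 CPM. LTi-like cells had 68.5 (62.3 to 75.1) and 42.3 (34.6 to 51.3) CPM of Bcl11a in fetal liver and 7.36 (6.07 to 8.85) and 6.69 (5.77 to 7.72) CPM in periphery. Over 8 other clusterings and gates the liver LTi-like level of Bcl11a ran from 46.2 to 126 and from 23.6 to 85.3 CPM. The liver mast cell or basophil-like level ran from 19.9 to 96.1 and from 18.1 to 88.9 CPM.

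**Figure D2:**
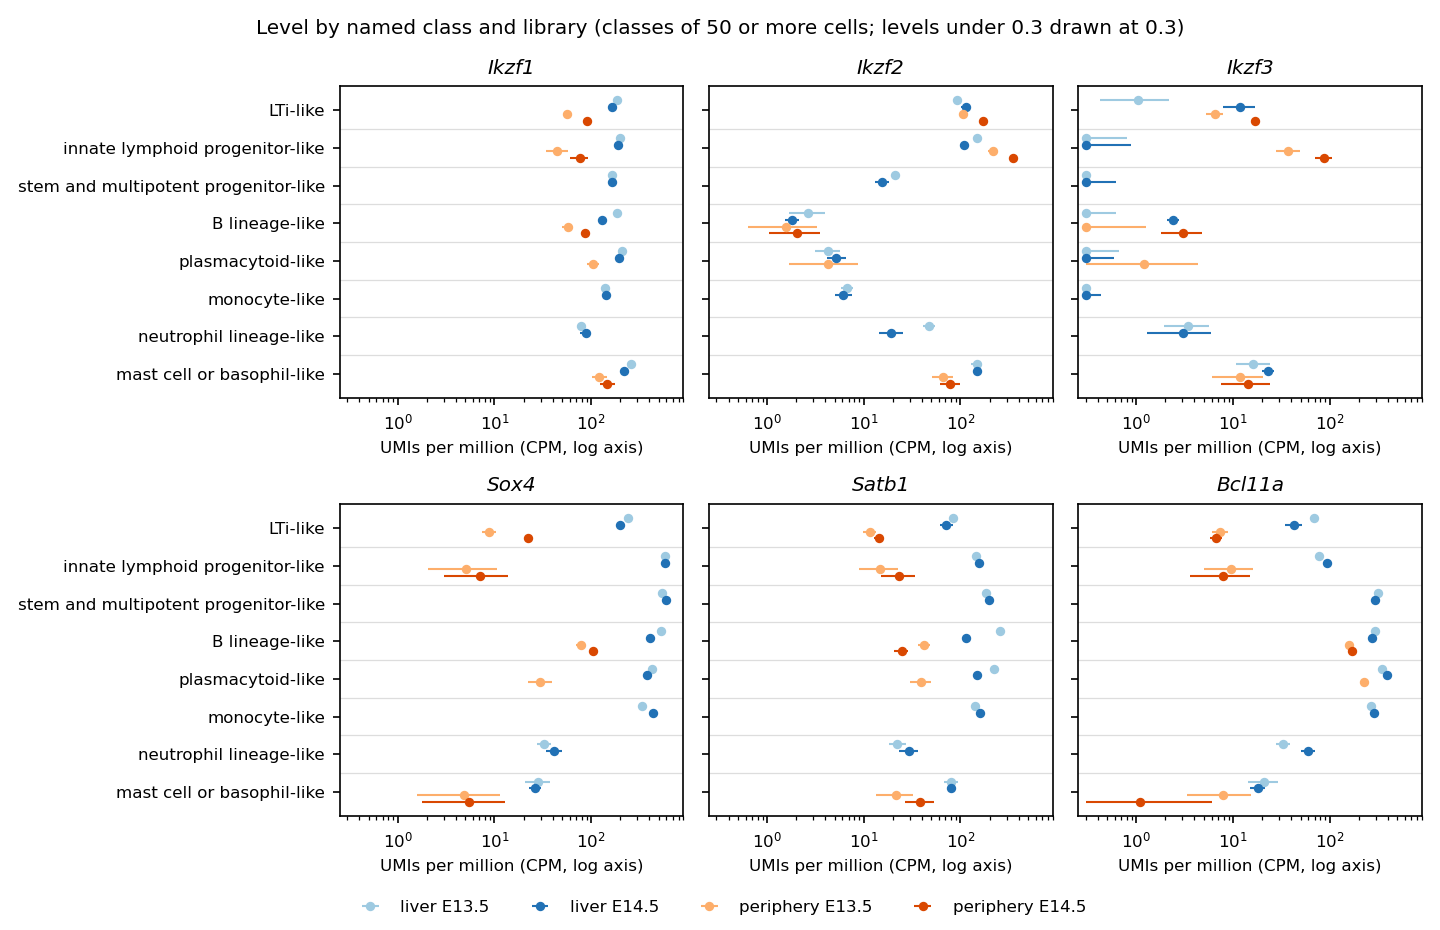
Level of each gene in CPM on a log axis, by class (rows) and library (colours), with 95% Poisson intervals; classes of under 50 cells in a library are left out and levels under 0.3 are drawn at 0.3. Ikzf1 points stay within about 1 decade, Ikzf2 points run from about 2 CPM in B lineage-like cells to 350.4 CPM, and Sox4 points of periphery sit left of all liver points of the same class.

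Ikzf2 and Bcl11a stood on opposite sides over the clusters. Across 30 points of fetal liver, each 1 cluster at 1 stage, the Pearson r of their log levels was -0.86, and across 25 points of periphery -0.83. Bcl11a went with Sox4 (r = 0.82 and 0.65) and with Satb1 (0.72 and 0.54), Satb1 with Sox4 (0.80 and 0.45), and Ikzf2 with Ikzf3 (0.65 and 0.82). The points of a tissue share 2 libraries and differ in depth, so these values are a description with no test. In FL1, for example, Ikzf2 was at 148 CPM with Bcl11a at 78.2 CPM, and in FL10, led by Vpreb2, Blnk and Igll1, Ikzf2 was at 0.593 CPM with Bcl11a at 341 CPM.

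**Figure D3:**
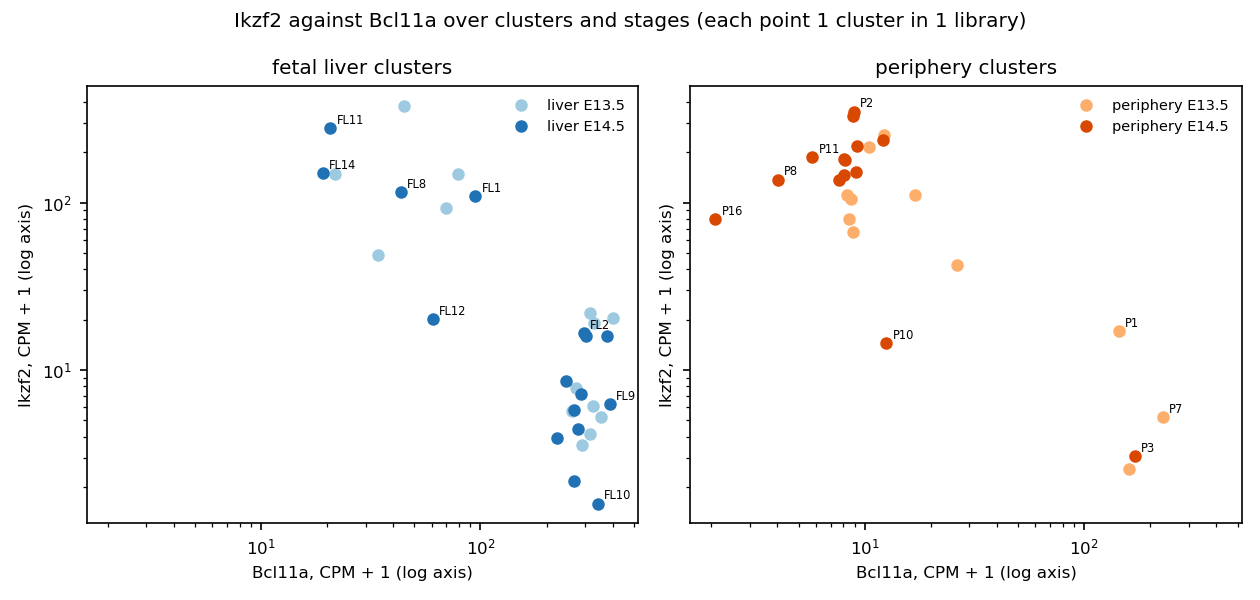
Ikzf2 against Bcl11a in CPM plus 1 on log axes; each point is 1 cluster in 1 library, with some clusters named. Points run from the upper left (FL11, FL14, P2, P16) to the lower right (FL10, P3, P7), with r of -0.86 in fetal liver and -0.83 in periphery.

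Over the same points, and among 9822 genes of fetal liver and 9485 of periphery, the genes most like each member were listed. Ikzf2 was most like Zbtb16 in fetal liver (r = 0.96), which encodes PLZF, a factor of innate lymphoid progenitors, and most like the cytokine receptor gene Il18r1 in periphery (0.96), with Gnptg and Zbtb16 next (0.95 and 0.94). Sox4 was most like Marcksl1 (0.99) and the chromatin-remodelling subunit genes Smarcc1 (0.97) and Smarce1 (0.95) in fetal liver, and Smg6 (0.83) in periphery. Bcl11a was most like the transcription factor genes Mef2c (0.95) and Tcf4 (0.93), with Themis2 between them (0.94), in fetal liver, and like Tnfrsf13c (0.95), the BAFF receptor gene, and Il12a (0.95) in periphery. Satb1 was most like the Ets factor gene Elf1 (0.93) in fetal liver and Pcgf3 (0.82) in periphery, Ikzf3 most like Itpr2 (0.91) and Rmdn2 (0.92), and Ikzf1 most like Map4k4 (0.82) and Ptprs (0.85). Apart from Zbtb16 no gene was among the first 3 for the same member in both tissues.

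In LTi-like cells thinned to 3000 UMIs, the share of cells holding both members of a pair had an interval that included the product of the separate shares in 57 of 60 pairs and libraries. In periphery at E14.5, 269 of 3083 LTi-like cells held both Ikzf1 and Ikzf2 UMIs, 8.73% (7.75 to 9.78) against 8.97% from the product of the shares. Ikzf2 and Ikzf3 met in 60 cells, 1.95% (1.49 to 2.498) against 1.87%. Ikzf2 and Sox4 met in 76 cells, 2.47% (1.95 to 3.08) against 2.35%. In fetal liver at E13.5, Ikzf2 and Sox4 met in 32 of 447 LTi-like cells, 7.16% (4.95 to 9.96) against 9.35%. Of the 3 pairs with an interval above their product, 1 was Sox4 with Satb1 in periphery at E14.5 (18 cells, 0.584% against 0.294%). The others were in fetal liver at E14.5: Satb1 with Bcl11a (12 of 218 cells, 5.505% against 1.92%) and with Ikzf3 (6 cells, 2.75% against 0.640%). Among 60 such intervals a few can miss the product with no link between the genes, and the number of pairs was not allowed for. These 3 pairs are thus not read as joint expression.

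In the LTi-like cells of fetal liver, Ikzf3 passed the fold between stages, at 1.45, where 2.29% of measured genes passed. The other members were inside it, with Bcl11a at -0.66, Sox4 at -0.28, Satb1 at -0.25, Ikzf1 at -0.18 and Ikzf2 at 0.27. The cells came from 1 cluster, with 451 cells at E13.5 and 226 at E14.5. Beside this, the B lineage gene Igll1 in these LTi-like cells was at 0.301 CPM at E13.5 and 36.6 CPM at E14.5, as B lineage-like cells went from 6.33 to 42.6% of the library, and the part of such RNA in the members' levels was not tested. When LTi-like cells were instead gated on marker UMIs, which left 55 cells per stage, all members but Ikzf1 passed: Bcl11a at -2.20, Satb1 at -1.22, Sox4 at -1.07, Ikzf2 at 1.04 and Ikzf3 at 2.51, the last with 0 UMIs at E13.5. The share of all genes past the fold was not computed for these gated cells, so this count cannot be set against it.

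Within LTi-like cells of periphery, the largest group, no measured member passed the fold, and 2.11% of genes did. Sox4 was at 0.76, Ikzf3 at 0.71, Ikzf2 at 0.43, Ikzf1 at 0.43 and Satb1 at -0.01, and Bcl11a was under 10 CPM in both libraries. Ikzf3 rested on 101 UMIs at E13.5 (6.52 CPM, 5.31 to 7.93) and 475 at E14.5 (16.998 CPM, 15.5 to 18.6). Mostly different clusters held these cells at the 2 stages, P0 and P4 at E13.5 and P9, P11, P13 and P14 at E14.5. In P4, led by cell-division genes and present at both stages (477 and 70 cells), the levels were 64.2 and 103 CPM for Ikzf1, 104 and 219 CPM for Ikzf2, 7.96 and 17.6 CPM for Ikzf3, 10.8 and 22.3 CPM for Sox4, and 13.7 and 19.97 CPM for Satb1. In P4 only the intervals of Ikzf1 and Ikzf2 were apart between stages among those 5 genes.

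LTi-like clusters of periphery differed in Sox4. At E14.5 it was at 37.4 CPM (32.2 to 43.1) in P14, led among others by the adhesion genes Madcam1 and Vcam1, against 12.8 CPM (10.1 to 15.98) in P13 and 24.3 CPM in P11, led by Il23r, Il22 and Ccr6 among others. Ikzf3 was at 13.46 CPM (10.4 to 17.1) in P14, 18.7 CPM in P13 and 20.96 CPM in P11. Bcl11a stayed between 4.78 and 8.22 CPM in the LTi-like clusters of this stage.

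Within B lineage-like cells of fetal liver, Satb1 passed the fold between stages at -1.08, and 2.18% of genes passed. Ikzf1 was at -0.44, Sox4 at -0.32 and Bcl11a at -0.06. The class held mostly FL4 (Rag1, Pax5) at E13.5, 517 of 638 cells, and FL13 (Vpreb1, Igll1, Vpreb3) at E14.5, 2432 of 4604 cells. Satb1 was at 281 CPM (269 to 293) and 220.2 CPM (214 to 227) in FL4 and at 149 CPM (128 to 172) and 73.1 CPM (70.5 to 75.8) in FL13, so it was lower at E14.5 inside each. At E14.5 the level was 122 CPM in FL10 and 56.6 CPM in FL15. The fold was short of the limit in 3 of 8 alternatives: with clustering at resolution 2, with doublets kept, and with B lineage-like cells gated on marker UMIs (-0.95). In B lineage-like cells of periphery (3.24% of genes past the fold) Satb1 was at -0.82, from 42.4 CPM (36.5 to 48.9) to 24.6 CPM (20.8 to 29.0), and no member passed.

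One more liver class had a member past the fold: in neutrophil lineage-like cells, where 0.734% of genes passed, Ikzf2 was at -1.11, with 207 UMIs in 239 cells at E13.5 (47.5 CPM, 41.3 to 54.5) and 51 in 191 cells at E14.5 (19.2 CPM, 14.3 to 25.3). The stem and multipotent progenitor-like, innate lymphoid progenitor-like, plasmacytoid-like, monocyte-like and mast cell or basophil-like cells of fetal liver had none. In that order 0.131, 0.447, 0.851, 0.108 and 0.976% of all genes passed there, so few genes of any kind did.

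**Figure D4:**
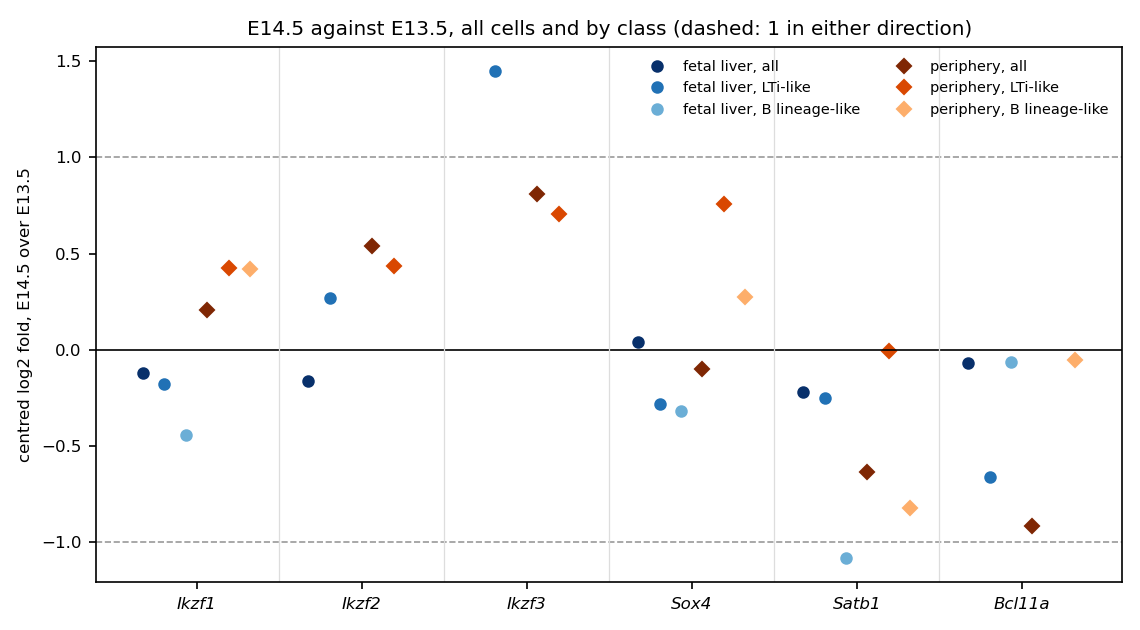
Centred log2 fold of E14.5 over E13.5 for each member over all cells, LTi-like cells and B lineage-like cells of each tissue; dashed lines mark 1 in either direction and members under 10 CPM in both libraries are left out. Only Ikzf3 in LTi-like and Satb1 in B lineage-like cells of fetal liver lie outside the dashed lines.

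The stage differences of periphery were also computed with the class mix held at that of E13.5. As measured over the classes and clusters used, Sox4 was at 33.8 and 36.7 CPM, and the E14.5 level with the E13.5 mix was 62.4 CPM. Bcl11a was at 51.3 and 32.3 CPM, and at 58.0 CPM with the E13.5 mix. Satb1 was at 25.5 and 18.1 CPM, and at 29.9 CPM with the E13.5 mix. These levels are not centred: with the mix held, the log2 folds were 0.80 for Sox4, 0.19 for Satb1 and 0.16 for Bcl11a. As measured over the same classes and clusters they were 0.10, -0.40 and -0.59. The median of 0.23 over all genes of periphery belongs to the measured mix. None was computed with the mix held, so the held-mix folds are not set against it. At E14.5 Ikzf2 (92.3 and 155 CPM, 155 CPM with the mix held) and Ikzf3 (6.82 and 19.0 CPM, 19.6 CPM held) were nearly the same with the mix held. Among the clusters whose share differed, the unnamed cluster P1, led by Flt3 and Cd34 among others, held 619 cells at E13.5 and 30 at E14.5, with 78.5 CPM of Sox4, 142 CPM of Bcl11a and 53.5 CPM of Satb1 at E13.5. The held-mix values give those 30 cells the weight of 619.

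Between tissues, which cannot be told apart from kit and feature list, most measured members passed the fold. At E13.5, 4 of 5 measured members passed, where 23.1% of all genes did: Sox4 at -3.07 (periphery over fetal liver), Satb1 at -2.10, Bcl11a at -1.78 and Ikzf2 at 2.14, with Ikzf1 at -0.92. At E14.5, 5 of 6 passed, where 23.7% of genes did: Sox4 at -3.19, Bcl11a at -2.61, Satb1 at -2.4996, Ikzf2 at 2.85 and Ikzf3 at 1.56, with Ikzf1 at -0.58. Ikzf1 at E13.5 passed in 4 of 11 alternatives (-1.33 without centring), and Ikzf3 at E14.5 was at 0.80 with 20 CPM added. The members' medians were -1.78 and -1.54, beside 0 for all genes.

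The same comparison was made inside classes. In LTi-like cells 4 of 5 members passed at E13.5 (23.5% of genes) and 3 of 6 at E14.5 (15.8% of genes), all lower in periphery. Sox4 was at -3.75 and -2.74, Bcl11a at -2.18 and -1.86, Satb1 at -2.04 and -1.83, and Ikzf1 at -1.22 and -0.65. Ikzf2 was at 0.59 and 0.72 and did not pass, a smaller value than the 2.14 and 2.85 over all cells. With the marker gate Satb1 at E14.5 was at -0.90 and no longer passed.

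In B lineage-like cells (19.0 and 12.7% of genes past the fold at E13.5 and E14.5) Sox4 was at -2.23 and -1.69, Satb1 at -2.03 and -1.82, Bcl11a at -0.44 and -0.48 and Ikzf1 at -1.16 (-0.98 with clustering at resolution 2, short of the limit) and -0.35. In mast cell or basophil-like cells (20.8 and 19.7%) Sox4 was at -1.34 and -1.33, Satb1 at -1.28 and -0.70, and Ikzf2 at -0.71 and -0.62, a lower level in periphery. Bcl11a in these cells was at -0.60 at E13.5 and rested on 1 UMI in periphery at E14.5. In innate lymphoid progenitor-like cells (28.7 and 27.5%), which are FL1 in liver and P2 in periphery, Sox4 was at -5.38 and -5.37, Satb1 at -2.48 and -2.29, Bcl11a at -2.05 and -2.71, Ikzf1 at -1.58 and -1.06, and Ikzf2 at 0.996, just short of the limit, and 1.87. Ikzf3 in that class had 1 and 0 UMIs in liver against 51 and 98 in periphery. Sox4 was thus lower in periphery in all 4 classes at both stages, and Bcl11a differed by less than the limit in B lineage-like cells.

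**Figure D5:**
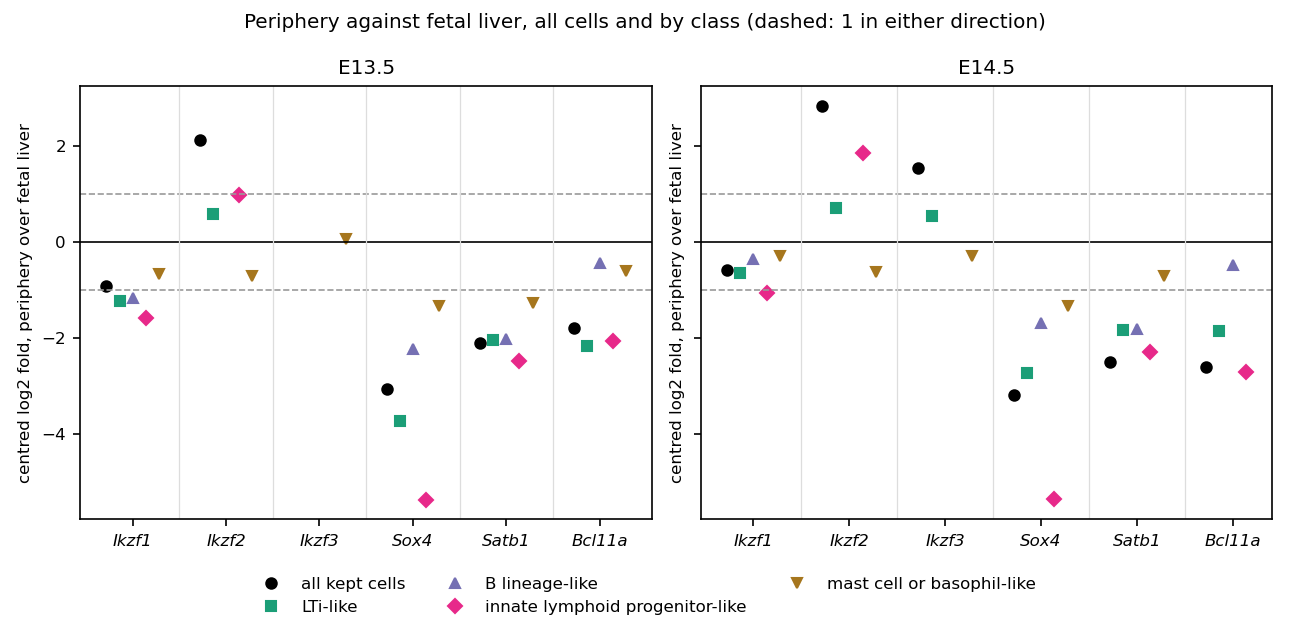
Centred log2 fold of periphery over fetal liver at E13.5 (left) and E14.5 (right) for all kept cells and 4 classes; dashed lines mark 1 in either direction, and points resting on 3 or fewer UMIs in a library or under 10 CPM in both are left out. Sox4, Satb1 and Bcl11a lie below 0 in every class shown, and Ikzf2 lies above 0 except in mast cell or basophil-like cells (-0.71 and -0.62).

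Relatives of the members were mostly scarce. Ikzf4 (Eos), Sox11 and Sox6 were under 1 CPM in all 4 libraries, and Ikzf5 (Pegasus) was at 10.6, 8.88, 6.90 and 13.4 CPM. Sox12, which with Sox4 and Sox11 forms the SoxC group, was at 10.9, 13.4, 2.27 and 1.60 CPM, higher in fetal liver as Sox4 was. Bcl11b, the T cell and innate lymphocyte relative of Bcl11a, was at 1.002, 3.88, 2.55 and 5.64 CPM.

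Partner genes of the NuRD, Sin3 and CtBP complexes, through which Ikaros proteins act on chromatin, were mostly inside the fold between stages. Of 16 genes 15 were measured, and none passed the fold between stages in fetal liver (median 0.02, from -0.19 for Sin3a to 0.44 for Mbd2), in periphery (median 0.14, from -0.30 for Mta1 to 0.79 for Hdac2) or within LTi-like cells of either tissue. Between stages in B lineage-like cells of periphery 1 passed, Hdac2 at 1.15 (3.24% of all genes). Between tissues at E13.5 (23.1% of all genes), 4 of 15 partners were lower in periphery and 1 higher, from Hdac2 at -2.51 to Hdac1 at 1.02. At E14.5 (23.7%), 3 of 15 were lower and 1 higher, from Ctbp1 at -2.41 to Hdac1 at 1.08. Of genes known to be regulated by Ikaros, 3 of 8 measured passed between stages in fetal liver (1.60% of all genes), all higher at E14.5, where B lineage-like cells were 42.6% of the library against 6.33%: Igll1 at 5.08, Vpreb1 at 4.64 and Rag1 at 1.20, the first pair surrogate light chain genes and Rag1 a recombinase gene of B and T cells. In B lineage-like cells of fetal liver alone (2.18% of all genes) 2 of 8 were higher (Vpreb1 at 2.59, Igll1 at 2.32) and 2 lower (Flt3 at -1.32, Notch1 at -1.10). In periphery (3.73% of all genes) 1 of 6 was higher (Hes1, a Notch target, at 1.41, and at 1.40 within LTi-like cells) and 1 lower (the progenitor receptor gene Flt3 at -2.07).

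The embryonic globins, which Bcl11a silences in red cells, were read as a check on other cells in the gate. In periphery Hbb-y was at 109 and 10.8 CPM and Hba-x at 11.1 and 1.05 CPM at E13.5 and E14.5, log2 folds of -3.08 and -1.63, so both measured genes of the list were past the fold (3.73% of all genes were). Within LTi-like cells of periphery Hbb-y was at 9.30 and 11.5 CPM, a fold of -0.02. The red-cell gene Alas2 led the shallow unnamed cluster P17, with 40 and 48 cells. The part of red-cell RNA in the Bcl11a values was not tested.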

How the data were processed

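The 4 libraries (1 per tissue and stage) were analysed from the deposited matrices, whose values are whole UMI counts without normalization by the authors. Cell Ranger version 3 and the mm10 genome are named in the submitters' processing notes. The software version is 3.0.0 for fetal liver (31053 genes) and 3.0.1 for periphery (28427 genes, 27566 of them shared), per the file headers. Barcodes under 500 genes or above 10% mitochondrial UMIs were dropped. Doublets scored with Scrublet in scanpy 1.11.5 were left out, 5.28 and 7.34% of barcodes in fetal liver by its automatic threshold and 3.16 and 3.71% in periphery by the expected rate of 0.8% per 1000 barcodes. Cells of a tissue were clustered over both stages on 2000 variable genes without the 6 members, haemoglobin, mitochondrial, ribosomal and cell-cycle genes (30 principal components, 15 neighbours, Leiden resolution 1). Clusters were named from 20 marker sets. A marker counted at 20 CPM and 1 log2 unit over the lower quartile of clusters, a name needed at least 3 and 70% of markers and no other class with more among the 10 leading genes, and shallow clusters stayed unnamed. That rule was settled after the data had been seen. Classes under 50 cells in a library were not compared.

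The members, lists and markers were chosen with earlier results of these data known. Named genes are the members, fixed lists with their extremes and members past the fold, family relatives, and the 3 genes most like each member. Total depth limits precision as the intervals show, and thinning used seed 1. The fold call was run on simulated Poisson counts, with 200 genes per tissue changed by folds well past the limit, and all 200 were recovered. This checks the calculation only. It cannot speak to the spread between libraries or to genes near 10 CPM. No test between groups was made, since each group is 1 library.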

Additional observations from a re-analysis of the deposited data

Results flagged for a closer look

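Over all cells, the stage folds of 2 members pointed opposite ways in the 2 tissues, with the Poisson intervals of the 2 stages apart in each tissue. Ikzf1 was at -0.12 in fetal liver and 0.21 in periphery (centred log2, E14.5 over E13.5), and Ikzf2 at -0.16 and 0.54. With 1 library per group the difference between the tissues was not tested, and none of these folds passed 1. Inside LTi-like cells Ikzf1 was again at -0.18 in fetal liver and 0.43 in periphery, and Ikzf2 at 0.27 and 0.43. In the liver LTi-like cells the Ikzf1 intervals of the 2 stages overlap (173 to 193 and 148 to 181 CPM). Its fold there stayed below 0 in all 8 alternatives. The Ikzf2 fold there kept its sign in 6 of 8 alternatives (-0.04 to 1.04). Which member points opposite ways inside LTi-like cells is thus not settled by these values.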

How the results depend on the processing

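No paired analysis was possible because each group is 1 library. The number of members past the fold stayed at 0 between stages in fetal liver under all 11 alternatives. In periphery it was 0 in the main analysis, 2 with 1 CPM added, and 1 each without centring, with equal weight per cell and without the filter on low values. Between tissues it was 4 to 6 at E13.5 and 4 or 5 at E14.5. For periphery LTi-like cells it stayed at 0 under all 8 clusterings and gates, and within the named classes of fetal liver it was 3 in the main analysis, 2 or 3 under the other clusterings and 7 with classes gated on marker UMIs. The share of all genes past the fold was computed in the main analysis only, so the counts under the alternatives have none beside them. No called fold reversed. The stage fold of Sox4 over all cells of periphery, -0.10, became 0.13 without centring. Ikzf3 in LTi-like cells at E14.5, 0.55 between tissues, became -0.63 with the marker gate. Of the class levels recomputed under the alternatives, 353 moved beyond the counting interval of the reported value and 799 did not, so the intervals understate how far class levels depend on the clustering. Leaving out the shallow or mixed clusters, an alternative chosen after seeing the data, changed no count.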
